A study of Mus musculus with 4 samples.

Results

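Open chromatin assigned to 3 paired box genes (Pax3, Pax8 and Pax9) and 3 SRY-related HMG box genes (Sox2, Sox12 and Sox18) was described in mouse fibroblasts lacking Rela or Kindlin-2. The members are all regions that carry 1 of these 6 gene names in the deposited tables, which gave 7 of 34172 regions. Of these, 6 were among the 28445 regions of the Rela table, 1 per gene, and 1 was among the 5727 regions of the Kindlin-2 table, at Pax9. The 6 genes were chosen by the measured knockout to control ratios of these same libraries, so the ratios below are a description and no test was made on them. No limit on the ratio set them apart from the rest of their families. The smallest member difference in the Rela table was that of Pax8 (log2 ratio -2.05), and a region of the non-member Sox4 (-2.68) exceeded it. The region of the non-member Sox11 (-1.42) passed 2-fold but differed by less than any member in that table.

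Accessibility was measured by ATAC-seq, in which the Tn5 transposase inserts adapters into open DNA. The Rela comparison set 3T3 cells, an embryonic fibroblast line, labelled Rela wt against 3T3 cells labelled Rela K.O. The Kindlin-2 comparison set kidney fibroblasts labelled Kindlin-2 floxed against kidney fibroblasts labelled Kindlin-2 K.O. The cells of all 4 genotypes grew in the same serum-containing medium and were at passages 15 to 20. Rela encodes the p65 subunit of NF-kB, and Kindlin-2 is an adaptor of integrin tails. How the alleles were deleted, and whether a culture was 1 clone, is not given in the sources used here. Each genotype has 1 column of normalized signal, although the study's design text names 2 biological replicates per genotype. No difference below therefore has a replicate check, and a difference between cultures cannot be told apart from a difference between genotypes.

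Pax proteins bind DNA through a paired domain, in some members together with a homeodomain, and Sox proteins bind through an HMG box that bends the DNA. Both families are known for setting lineage identity in the embryo. Pax3 acts in neural crest and muscle precursors, Pax8 in thyroid and kidney, and Pax9 in the pharyngeal endoderm, the teeth and the vertebral column. Sox2 maintains pluripotent and neural stem cells, Sox12 is a SoxC factor related to Sox4 and Sox11, and Sox18 acts in endothelial and lymphatic development.

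Promoter sequences are shown for 3 members, Pax9, Sox2 and Sox12, because their regions overlap the promoter window that RefSeq gives for the gene, by 130, 300 and 159 bases. Such a window runs from 250 bases before to 50 bases after the start in build GRCm38.p6, the assembly behind mm10, and was listed for 4 of the 6 genes. The window of the fourth, Pax8, lay outside its open region, and Pax3 and Sox18 have no listed window. The 250 bases before each start are printed 5′ to 3′ on the gene's own strand, with matches to the GC box GGGCGG on either strand in capitals (CCGCCC where the match is on the other strand). They lie at chr12:56695221-56695470 on the plus strand for Pax9, at chr3:34649745-34649994 on the plus strand for Sox2 and at chr2:152398047-152398296 on the minus strand for Sox12.
Pax9: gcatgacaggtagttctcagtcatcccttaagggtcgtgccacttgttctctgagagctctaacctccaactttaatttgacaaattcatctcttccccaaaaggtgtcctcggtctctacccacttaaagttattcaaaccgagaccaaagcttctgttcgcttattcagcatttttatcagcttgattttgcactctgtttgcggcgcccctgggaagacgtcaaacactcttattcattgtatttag
Sox2: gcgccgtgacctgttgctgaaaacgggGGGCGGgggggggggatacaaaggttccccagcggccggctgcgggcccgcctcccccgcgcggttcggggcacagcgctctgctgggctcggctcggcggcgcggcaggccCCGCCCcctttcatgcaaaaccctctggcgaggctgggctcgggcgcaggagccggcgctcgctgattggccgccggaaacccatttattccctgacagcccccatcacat
Sox12: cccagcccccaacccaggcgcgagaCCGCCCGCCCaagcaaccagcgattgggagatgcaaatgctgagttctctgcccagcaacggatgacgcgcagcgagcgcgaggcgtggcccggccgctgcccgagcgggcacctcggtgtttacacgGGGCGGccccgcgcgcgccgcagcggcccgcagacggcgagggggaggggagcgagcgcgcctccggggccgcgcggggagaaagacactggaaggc

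The 3 promoters differ widely in base composition. The window of Sox12 has a GC content of 76.7% and 47 CpG dinucleotides, that of Sox2 has 66.3% and 27, and that of Pax9 has 47.0% and 11. The median over 32851 windows of 300 bases was 52.7% GC and 7 CpG. GC boxes, counted on both strands with overlaps, occur 4 times in the Sox12 window, 2 times in the Sox2 window and 0 times in that of Pax9, and 35.7% of all windows hold at least 1. The windows run 50 bases past the printed stretch, so not every match in the Sox12 window is marked above, and overlapping matches share 1 run of capitals. The consensus of the kB site, the element bound by NF-kB, matched 1 time in the Pax9 window, as GGAGTTTCCC at chr12:56695510-56695519. That match lies 39 bases after the start base, past the printed stretch. It was not matched in the Sox2 and Sox12 windows, and 8.46% of all windows hold 1 or more. The HMG box core ACAAAG matched 1 time in the Sox2 window, against 18.7% of all windows, and the variant AACAAT in none of the 3. Neither the AP-1 site TGANTCA, the TEAD site GGAATG, the paired domain core GTCACGC nor TATAAA matched in any of the 3. These are matches of letters only.

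In Rela knockout cells 4 of the 6 members, Pax9, Sox12, Sox2 and Pax3, had higher signal by at least 2-fold, and 2, Pax8 and Sox18, had lower signal by at least 2-fold. The filter on low values, a mean signal of at least 1, left 28332 regions and all 6 members, and 22.4% of these regions were higher by 2-fold or more and 21.0% lower by as much. The members were picked for their ratios, so nothing is read from their count. Each of the 4 higher regions lay close to a start of its gene, for Pax9 the start in RefSeq and not the deposited one. The 2 lower regions lay farther out, upstream of their gene.

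**Figure D1:**
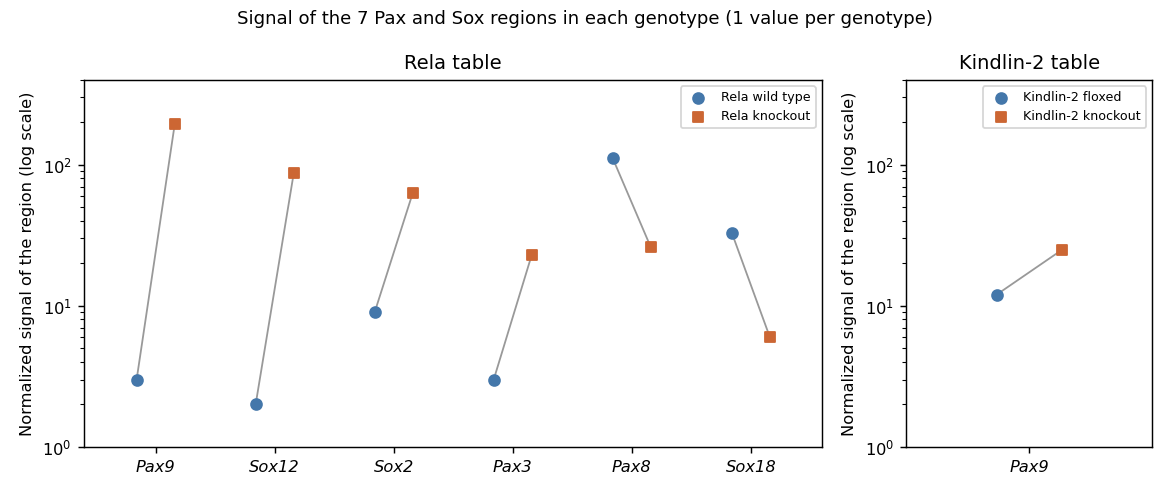
Normalized signal of each Pax and Sox region on a log axis, with circles for the control and squares for the knockout genotype and 1 value per genotype. In the Rela table Pax9, Sox12, Sox2 and Pax3 are at 9 or less in the control and higher in the knockout, Pax8 and Sox18 are lower in the knockout, and in the Kindlin-2 table Pax9 goes from 12 to 25.

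Pax9 showed the largest difference among the members. Its region on chromosome 12 (56695391 to 56696123) went from a signal of 3 in the wild type to 193 in the knockout. The ratio was 64.3, with a 95% interval for counting error of 27.1 to 261 (log2 ratio 5.60). Only 138 of 28332 regions, or 0.487%, had a ratio at least as high. In the knockout the region stood at the 97.6th percentile of signal over all regions, and in wild-type cells at the 7.10th. The deposited annotation sets the region inside the gene, 3990 bp from its start, whereas RefSeq lists a Pax9 start 286 bp from the region's centre. The start of the long noncoding RNA gene Gm15524 lies 990 bp from that centre.

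Sox12 followed. Its region on chromosome 2 (152398138 to 152399163) went from 2 in the wild type to 87 in the knockout. The ratio was 43.5 (14.1 to 210, log2 ratio 4.87), and 358 regions, or 1.26%, had a ratio at least as high. At 1025 bp the region is wider than 93.3% of the table's regions, and its centre lies 588 bp upstream of the start. The next gene start in RefSeq, that of Zcchc3, is 16.4 kb away.

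The Sox2 region on chromosome 3 (34649359 to 34650046) went from 9 to 63, which is 7-fold (3.85 to 13.9, log2 ratio 2.68). It covers the whole RefSeq promoter window of Sox2, with its centre 293 bp from that start and 702 bp from the start in the deposited annotation. It also lies inside Sox2ot, the long noncoding RNA gene around Sox2, and accessibility does not tell which of these genes it belongs to. The Pax3 region on chromosome 1 (78196929 to 78197358) is centred 10 bp from the gene's start, with 50% of its length inside the gene. It went from 3 to 23, which is 7.67-fold (2.86 to 33.1, log2 ratio 2.58). The knockout value of Pax3 is at the 34.1st percentile of all regions, and that of Sox2 at the 72.8th.

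The lower members, Pax8 and Sox18, were regions away from the gene start. The Pax8 region on chromosome 2 (24479812 to 24480188), 4401 bp upstream of the gene, went from 111 in the wild type to 26 in the knockout. This was a 4.27-fold lower signal (2.88 to 6.79, log2 ratio -2.05). The region was among the stronger ones in wild-type cells, at the 90.7th percentile. The Sox18 region on chromosome 2 (181675446 to 181675826), 3996 bp upstream of the gene, went from 33 to 6, a 5.50-fold lower signal (2.46 to 16.5, log2 ratio -2.28). The nearest other region, 3.37 kb away and assigned to the elongation factor gene Tcea2, held 36 and 31. No region at the start of Pax8 or Sox18 was listed, which does not say that the signal there was 0.

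**Figure D2:**
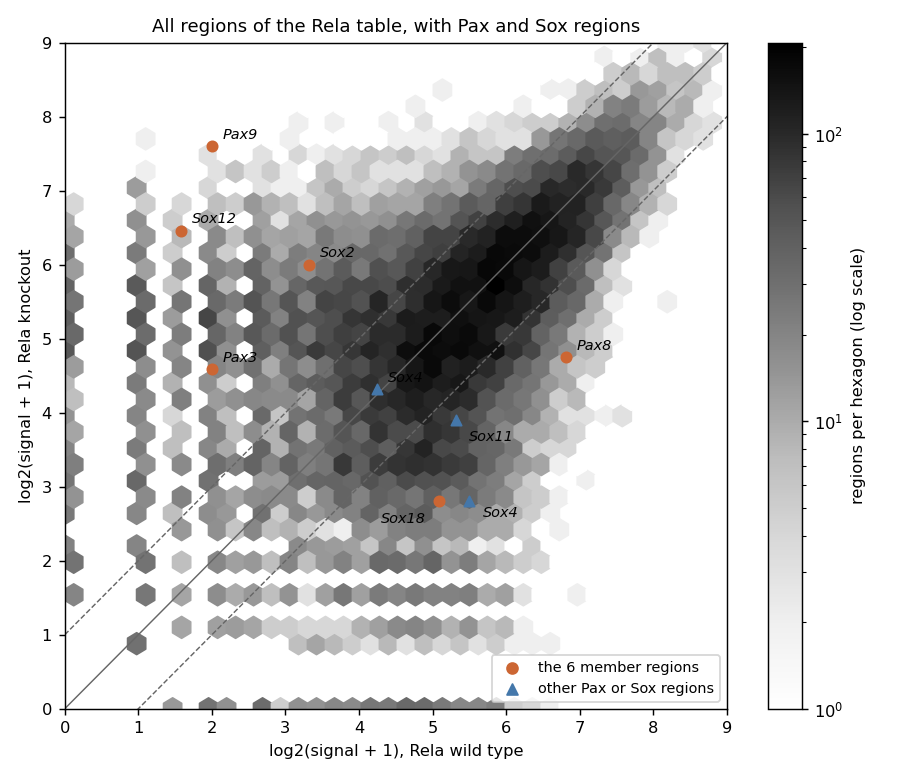
Signal of every region of the Rela table, as log2(signal + 1) in wild-type against knockout cells, shaded by the number of regions on a log scale, with Pax and Sox regions marked. Dashed lines mark a 2-fold difference, 8 regions beyond an axis value of 9 are outside the frame, and 4 members lie above the upper line and 2 below the lower one.

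Per kb of region, the order of the members differed between the genotypes. Wild-type cells had the highest signal density at Pax8, 295 per kb (interval 252 to 345), then at Sox18 with 86.8 (63.6 to 114). The other 4 lay between 1.95 and 13.1 per kb. Among these 4, neighbours in the order (Sox2, Pax3, Pax9, Sox12) had overlapping intervals. Knockout cells had the highest density at Pax9, 264 per kb (228 to 302). Sox2, Sox12, Pax8 and Pax3 followed with 91.7, 84.9, 69.1 and 53.6 per kb, where each interval overlapped that of the next, and Sox18 was lowest with 15.8 (5.50 to 32.6).

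The 4 higher members were all low in wild-type cells, and regions picked for a low value in 1 genotype tend to be higher in the other by that choice alone. Of 4306 regions with a wild-type signal of 9 or less, the highest value among the 4 higher members, 75.5% were higher by 2-fold or more in the knockout and 5.67% lower by as much. The mirrored choice, 4275 regions with a knockout signal of 9 or less, gave 67.8% lower and 9.57% higher. Of 12213 regions with a wild-type signal from 33 to 111, the range of Pax8 and Sox18, 5.40% were higher and 27.2% lower. These shares describe the choice by level, and the part of that level in the members' ratios was not tested.

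All 6 member genes carry the Gene Ontology term for sequence-specific transcription factor activity in the deposited table. Terms of nervous system development were found for 4 of 6 and terms of cell fate commitment for 4 of 6, each counted separately. The share of other genes with these terms is not given here, so nothing is read from these counts. Among 397 regions of genes with transcription factor activity 15.1% were higher and 12.8% lower in the Rela knockout, with a median log2 ratio of 0.00. Of 5592 regions that overlap any RefSeq promoter window, 9.82% were higher and 10.7% lower.

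Other Pax and Sox genes were mostly not listed. Of the families, the Rela table listed 3 of 9 Pax genes and 5 of 20 Sox genes, so the members are all measured Pax genes and 3 of the 5 measured Sox genes. The other two are the SoxC genes Sox4 and Sox11, regulators of progenitor survival and differentiation. The region at the Sox4 start held 18 and 19 (ratio 1.06, interval 0.566 to 1.99). Another Sox4 region, 4808 bp upstream, went from 44 to 6, a 7.33-fold lower signal (3.34 to 21.7), beside a chromosome 13 median log2 ratio of -0.79. The Sox11 promoter region held 39 and 14, a 2.79-fold lower signal (1.53 to 5.20). Over all 9 regions of both families, 4 were higher and 4 lower, where 22.4% of all regions were higher and 21.0% lower. The median log2 ratio was 0.07 beside 0.00 over the whole table. Of these 9 regions 6 are the members, picked for their ratios, so nothing is read from the counts or the median.

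The Kindlin-2 table held 2 regions of these families. The Pax9 region (56695442 to 56695633) lies inside the Pax9 region of the Rela table and overlaps the same RefSeq promoter window. It held 12 in floxed and 25 in knockout cells, a ratio of 2.08 with a counting interval that reached below 1 (0.922 to 4.97). Intervals for this table take the knockout values as counts, which was assumed. Its log2 ratio of 1 is exactly at the limit for a 2-fold difference, which 16.2% of the 5727 regions of that table reached or passed in the same direction. The median log2 ratio of chromosome 12 was 0.55 in that table, and with chromosomes centred the Pax9 value was 0.45. Sox11 held 10 and 17 (ratio 1.70, 0.703 to 5.09). The Sox11 region of the Rela table, which it overlaps, went from 39 to 14. Whether the knockouts differ in this was not tested. No region of Pax3, Pax8, Sox2, Sox12 or Sox18 was listed in the Kindlin-2 table, which has a median signal of 16 in both genotypes. Mitochondrial DNA held 91.8% of that table's signal in floxed and 86.2% in knockout cells, and its part in the Pax9 value was not tested.

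Within 500 kb on each side of the members, the Rela table held 89 further regions, of which 22.5% were higher and 16.9% lower, beside 22.4% and 21.0% over the whole table. Around the 4 higher members 19 of 62 were higher and 11 lower, and around Pax8 and Sox18 1 of 27 was higher and 4 were lower. These regions share chromosomes with the members and are not independent of them. At Sox2, of 11 other regions, 6 were higher, 2 lower and 3 within 2-fold, with a median log2 ratio of 1.16. On the side toward larger coordinates, the region 94.0 kb away held 22 and 129, that at 126 kb, at a long intergenic noncoding RNA, held 16 and 124, that at 134 kb held 15 and 40 and that at 206 kb held 13 and 66. On the other side, regions at 139 kb and 154 kb went from 48 to 133 and from 20 to 46, and regions at 192 kb and 318 kb went from 33 to 7 and from 29 to 3. The chromosome 3 median was 0.53, and the Sox2 log2 ratio was 2.14 with chromosomes centred and 2.10 against its 50 nearest regions.

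**Figure D3:**
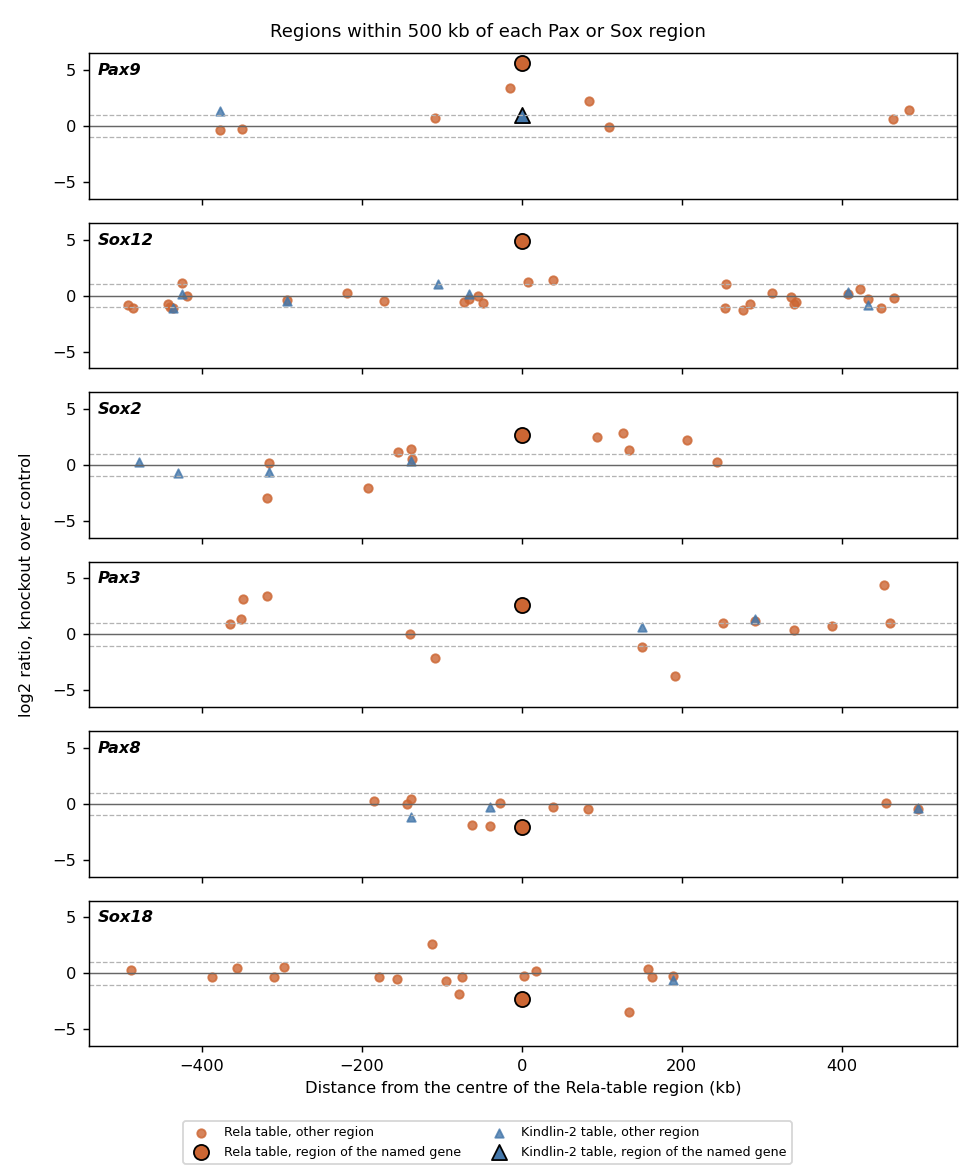
Log2 ratio of knockout over control for each region within 500 kb of a member, against the distance in kb from the centre of the member's region in the Rela table. Circles are the Rela table and triangles the Kindlin-2 table, large outlined symbols are the named gene, and dashed lines mark 2-fold. Around Sox2 6 of 11 other regions lie above the upper line, and around Sox12 4 of 29 do.

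At Pax9, 3 of 8 other regions were higher and 0 lower. The nearest, 14.3 kb before the Pax9 region, went from 4 to 53 and another, 84.3 kb after it, went from 39 to 190. At Pax3, 6 of 14 other regions were higher and 3 lower, and the Pax3 log2 ratio of 2.58 was 1.46 against its 50 nearest regions. The strongest contrast there, 452 kb away, went from 5 to 131. Sox12 stood among regions that mostly did not pass 2-fold. Of 29 other regions 4 were higher, 6 lower and 19 within 2-fold, with a median of -0.38. The closest, 7.63 kb and 39.1 kb away, went from 12 to 30 and from 5 to 15. At Pax8, 2 of 10 other regions were lower and 0 higher. Of these, 1 lies within the bounds of the Pax8 gene, 39.7 kb from the upstream region, and went from 83 to 21. Its deposited gene type is processed transcript, and it does not carry the name Pax8. The other lies 62.6 kb from the upstream region and went from 37 to 9. At Sox18, 14 of 17 other regions were within 2-fold.

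Some of these flanking regions were open in both cell types. Of 19 Kindlin-2 regions in the same windows, the Pax9 member included, 16 overlapped a region of the Rela table. The knockout to control differences had the same sign in 11 of the 16, the Pax9 region among them. The same shares over all regions of the Kindlin-2 table are not given here, so nothing is read from these counts. The region inside Pax8 held 22 in floxed and 18 in Kindlin-2 knockout cells, against the 83 and 21 of the Rela pair. The region 139 kb from Sox2 held 23 and 30, against 48 and 133 in the Rela pair. Levels of the tables were normalized separately and are set side by side only.

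Partners and targets of Pax proteins were measured for 11 of 31 listed genes in the Rela comparison. Of their 13 regions, 2 were higher and 4 lower, where 22.4% of all regions were higher and 21.0% lower. Their median log2 ratio was -0.18. The promoter of Msx1, a homeobox gene that acts with Pax9 in tooth development, went the other way from Pax9. It held 54 in the wild type and 1 in the knockout, a 54-fold lower signal (interval 9.91 to 2274). Osr2, a further tooth gene, went from 84 to 31. The promoters of Six2 and Six5, homeobox genes of the network that joins Pax and Eya factors, were 5.00-fold (2.84 to 8.73) and 3.73-fold higher (2.25 to 6.39), while Six4 held 18 in both at its start and 25 and 18 at a second region, and Eya1 held 33 in both. A region 2165 bp upstream of Met, a Pax3 target that encodes the receptor of hepatocyte growth factor, went from 23 to 7, and the region at its start from 111 to 169. Mitf, a Pax3 target of pigment cells, went from 55 to 23. The Kindlin-2 table listed 3 of these genes, and 1 of 3 regions was higher, at Six4 (4 and 13, ratio 3.25, interval 0.875 to 17.4, which includes 1). The Met region there held 48 in floxed and 24 in knockout cells, a ratio of 0.50 with an interval of 0.287 to 0.871 that lies below 1, and a log2 ratio of -0.97, just inside the 2-fold limit. Mitf held 12 and 15.

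Partners and targets of Sox proteins had 7 regions over 6 of 28 genes in the Rela table, with a median log2 ratio of 0.00. Of these regions 1 was higher and 0 lower, where 22.4% of all regions were higher and 21.0% lower. The higher region lay 2018 bp inside the pluripotency gene Klf4 (7 and 30, ratio 4.29, interval 2.13 to 10.1), while its promoter held 76 and 64. A region 4665 bp upstream of Nanog, another pluripotency gene, held 62 and 73. Flt4, a lymphatic receptor gene, held 19 and 18. The Kindlin-2 table listed only Klf4 (8 and 12).

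The listed regions whose values in both Rela genotypes were closest to a member, by Euclidean distance over the 2 log2 levels, were mostly those of developmental regulators, which make up most of the lists searched. Sox12 was closest to the T-box genes Tbx3 (1 and 140, distance 0.90) and Tbx20 (1 and 47, 1.05), and Pax9 to Tbx3 (1.10) and Sox12 (1.21). Sox2 was closest to Six2 (12 and 60, 0.38) and Six5 (15 and 56, 0.70), and Pax3 to a region of Klf4 (7 and 30, 1.07) and 1 of Csf1r (5 and 11, 1.16). Pax8 was closest to Osr2 (84 and 31, 0.47) and Hoxd13 (97 and 19, 0.47). Sox18 was closest to the upstream Sox4 region (44 and 6, 0.40) and to Hoxa10 (31 and 9, 0.52). Pax9 in the Kindlin-2 table was closest to a region of Ptprc (10 and 27, 0.26) and to Sox11 (0.58). As whole families in the Rela table, T-box and Msx genes had 3 higher and 2 lower among 6 regions, and Hox genes 1 higher and 4 lower among 7, where 22.4% of all regions were higher and 21.0% lower. Msx1 is counted here and among the Pax partners.

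Markers of fibroblasts had 13 regions over 12 of 19 genes in the Rela table, 3 higher and 3 lower, with a summed signal of 558 and 625. Of all regions 22.4% were higher and 21.0% lower. The higher ones were S100a4 (46 and 133), Fbln1 (12 and 29) and Postn (10 and 22). The lower ones were Col5a1 (53 and 20), Dpt (23 and 8) and a Col1a2 region (40 and 18). Among those within 2-fold, Vim, the mesenchymal intermediate filament gene, held 110 and 108. The Kindlin-2 table listed 0 of the 19. Of the cell types in which the members act, the Rela table listed 1 of 12 endothelial genes (Flt1, 84 and 57), 2 of 14 kidney epithelial genes (Cdh16, 2 and 7, and Krt19, 8 and 19), 1 of 10 skeletal muscle genes (Myh1, 3 and 0) and 1 of 9 neural crest and glial genes (Mbp, 60 and 95). Cdh16 and Krt19 were higher by at least 2-fold and Myh1 lower. These values are low, and the ratio intervals of Cdh16 (0.740 to 19.4) and Myh1 (0 to 2.10) include 1, while that of Krt19 is 1.08 to 5.20. Of 10 leukocyte genes 3 were listed, with a summed signal of 90 and 73. Among their 4 regions 1, at Csf1r, was higher (5 and 11). Its log2 ratio was exactly at the 2-fold limit, and its interval of 0.865 to 7.14 includes 1. In the Kindlin-2 table the only marker listed of any of these cell types was the leukocyte gene Ptprc, higher in the knockout as Pax9 was (10 and 27, ratio 2.70, interval 1.204 to 7.71). Ptprc in the Rela table held 56 and 33. Their part in the members' differences was not tested.

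**Figure D4:**
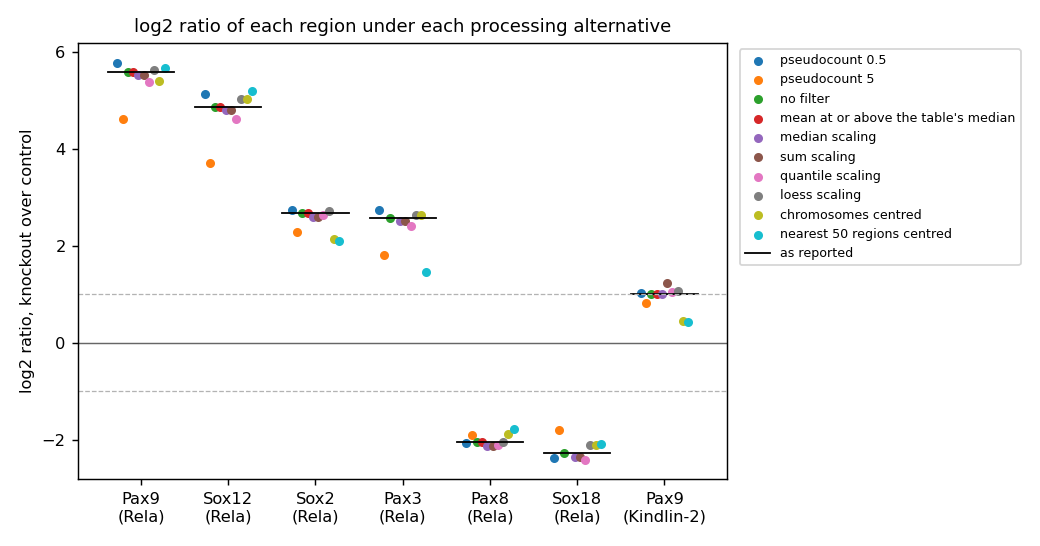
Log2 ratio of knockout over control for each of the 7 regions, as reported (black bars) and under each of the other processing choices (points), with dashed lines at 2-fold. The 6 regions of the Rela table stay beyond the dashed lines under all choices that gave a value, and Pax9 in the Kindlin-2 table lies on both sides of its line.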

How the data were processed

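Among the tools in the submitters' processing notes are an aligner, STAR 2.4.2a, a read trimmer, Trimmomatic 0.33, and Picard 1.136. MACS2, a peak caller, is listed too, as is the build mm10. How regions were called, duplicates treated and Tn5 offsets shifted is not given in those notes. Each deposited value is a score in whole numbers: per the labels, the authors corrected it for background and scaled it by the DESeq method, 1 table at a time. It is no count of reads. The deposited fraction of each region inside its gene and the distance to the start were used as they stand. Whether region starts are 0-based or 1-based is unstated, so positions may be off by 1 base.

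Each region's log2 ratio is log2((knockout + 1)/(control + 1)) for regions with a mean of at least 1, and at least 2-fold means a log2 ratio of at least 1 in size. With 1 column per genotype no test was possible, and the limma test planned for replicate columns was not run. Ratios in the text are of the plain values. Their exact (Clopper-Pearson) 95% intervals, and exact Poisson intervals per kb, use counts implied by the factor that best explains which whole values are rare in a column. This was 0.683 for Rela wild type (93.8% of the deviance), 0.949 for the Rela knockout (81.7%) and 1.36 for Kindlin-2 floxed (95.5%). No factor passed 50% for the Kindlin-2 knockout, which was given 1. The median region thus rests on about 49.8, 36.9 and 11.8 implied counts, and in the Kindlin-2 knockout on 16 under the assumed factor of 1. All intervals for ratios of the Kindlin-2 table depend on that assumption. Intervals cover counting error only, and leave out the background correction.

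Sums of signal were 1386832 and 1458609 in the Rela pair, and 134996 and 114217 outside mitochondrial DNA in the Kindlin-2 pair. Members, lists and tests were chosen with earlier results of these data known. The named genes are all Pax and Sox regions, up to 4 genes per list past 2-fold with the largest ratio, the 2 closest listed genes per member, and regions within 500 kb. Eya1, Osr2, Mitf, Six4 in the Rela table, Met in the Kindlin-2 table, the Klf4 promoter, Nanog, Flt4 and the marker genes were named in addition, after their values were seen. RefSeq gene positions overlapped those of the Rela table for 99.9% of 6895 genes matched by symbol. Python 3.11.15, numpy 2.4.6, pandas 2.3.3, scipy 1.17.1 and statsmodels 0.14.6 were used.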

Additional observations from a re-analysis of the deposited data

How the results depend on the processing

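All 6 members of the Rela table kept their direction and a 2-fold difference under every alternative that gave a value (pseudocounts of 0.5 and 5, no filter, the upper part of the table by mean signal, and median, sum, quantile, loess, chromosome and neighbour scaling), and under a 3-fold limit. Pax3 and Sox18 have a mean below the table's median and gave no value under that filter. Their log2 ratios ranged from 4.63 to 5.79 for Pax9, 3.72 to 5.19 for Sox12, 2.10 to 2.74 for Sox2, 1.46 to 2.75 for Pax3, -2.13 to -1.77 for Pax8 and -2.41 to -1.79 for Sox18. With deposited promoter regions alone 3 members passed, since Pax9, Pax8 and Sox18 lie farther than 2500 bp from the deposited start. The family median of 0.07 in the Rela comparison became 2.58 with promoter regions alone, 3.78 among regions of at least median signal, 0.86 with chromosomes centred and 1.41 against the 50 nearest regions. The first of these uses fewer regions by construction, as does the second, and the cause of the others was not tested. It was within 0.20 of 0 under the remaining alternatives. The median of all regions moved by less than 0.1 in the Rela table and in the Kindlin-2 table went to 0.23 with sum scaling and to -0.23 among regions of at least median signal. Pax9 in the Kindlin-2 comparison, 1 call as reported, became 0 with a 3-fold limit, with a pseudocount of 5 (log2 ratio 0.82), with chromosomes centred (0.45) and against the 50 nearest regions (0.44). With promoter regions alone it was 0 by construction, since the region lies 3771 bp from the deposited start and is left out. The Kindlin-2 family median of 0.86 became 0.31 with chromosomes centred and 0.19 against the 50 nearest regions. In that table, the higher share of calls was 63.5% without rescaling, 79.8% with sum, 48.7% with quantile and 47.1% with loess scaling, and 30.1% at or above median signal. No paired analysis was possible because each genotype has 1 column, and for the same reason no replicate could be left out. The low implied counts of Pax3, Pax9 and Sox12 in wild-type cells (4.39, 4.39 and 2.93) limit how closely their ratios are known.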
